A study of Mus musculus with 3 samples.

Results

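The genes of glucose uptake, glycolysis, lactate formation and export, pyruvate dehydrogenase control and the pentose phosphate pathway were followed in CD8+ T cells, which kill infected cells. The list held 34 genes, chosen by symbol from known pathway membership, with earlier results of these data known. All 34 were found among the 17121 genes of the deposited table. RNA was sequenced from 3 samples of wild-type mouse cells from spleen and lymph node after 3 days of culture, with 1 sample in each group. The aged TRM sample came from mice of 18 months, and the young TRM and young TCR samples came from mice of 6 weeks. All 3 were stimulated with anti-CD3 and anti-CD28 at 1 µg/ml, antibodies that engage the T cell receptor (TCR) complex and the costimulatory receptor CD28. In both TRM samples the medium also held 2 cytokines, 20 ng/ml of IL-15 and 5 ng/ml of TGF-beta, that are known to promote resident memory T cells of tissues (TRM), so the TRM label names a culture condition and not cells taken from a tissue site. The labels do not give the strain, the sex or the number of mice behind a sample, and aged cells under TCR stimulation alone were not analysed here.

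Glycolysis splits glucose into pyruvate in the cytosol, and activated T cells are known to run it fast and to turn much of the pyruvate into lactate even with oxygen present. Glucose enters through transporters, hexokinase traps it as a phosphate ester, phosphofructokinase makes the committed step, and the enzymes from glyceraldehyde phosphate dehydrogenase onward yield ATP. Lactate leaves through monocarboxylate transporters, while pyruvate that enters mitochondria meets the pyruvate dehydrogenase complex, which pyruvate dehydrogenase kinases switch off. The pentose phosphate pathway branches off after hexokinase and supplies NADPH and ribose.

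The table gave 40385477 reads to aged TRM, 36021887 to young TRM and 39915663 to young TCR, of which the 34 genes took 2.52%, 2.31% and 2.93%. There were 2 numbered columns to a sample, and the labels do not say what the numbers mean. The columns were taken as repeats of 1 measurement. There were thus no biological replicates, differences could not be set against the variation between mice or cultures, and no p-value is given. The median difference of the 34 genes between the columns of a sample was 1.02-fold in aged TRM, 1.04-fold in young TRM and 1.04-fold in young TCR, and the widest was 1.39-fold for Eno2 in aged TRM. The T cell genes Cd3e, Cd3d, Cd8a and Cd8b1 summed to 2804 CPM in aged TRM, 3069 CPM in young TRM and 1745 CPM in young TCR. The marker sums of other cells were lower in each sample. The 7 B and plasma cell markers summed to 23.7, 17.1 and 47.1 CPM in aged TRM, young TRM and young TCR, the 6 myeloid markers to 17.6, 31.9 and 8.04 CPM, and the 4 CD4 T cell markers to 30.1, 54.2 and 31.0 CPM. Of the CD4 T cell markers Foxp3 had 3.71, 33.6 and 1.95 CPM, Zbtb7b 14.3, 8.03 and 18.1 CPM, and Cd4 11.6, 12.4 and 10.5 CPM. Mpeg1 carried most of the myeloid sum, with 15.4, 28.7 and 4.22 CPM. The 5 red cell and platelet markers summed to 5.49, 2.19 and 9.50 CPM. Adgre1 was at 0 in young TRM, and Hbb-bs and Cdh5 were at 0 in young TCR. NK and innate lymphoid markers summed to 508, 286 and 218 CPM, mostly from Klrd1 and Kit. Ncr1, which defines NK cells, had 1.18, 2.19 and 0.05 CPM. Klrb1c had 3.47, 4.14 and 0.94 CPM, Tyrobp 1.35, 1.59 and 0.25 CPM, and Fcer1g 3.64, 4.51 and 1.23 CPM. Each of these NK and innate lymphoid markers was lowest in young TCR. Stromal and endothelial markers summed to 55.6, 72.1 and 78.8 CPM, of which Pecam1 gave 53.5, 70.7 and 76.5 CPM. The part of other cells in the results below was not tested. In bulk RNA, fewer cells of a type and less RNA per cell cannot be told apart.

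A gene is compared between samples in CPM, read counts relative to the library total after TMM scaling of the libraries, and different genes are compared in TPM, which also divides by transcript length. Log2 ratios hold a pseudocount of 1 CPM and printed folds do not. Rose and fell are used where the log2 ratio reached 1 in size with a 95% counting interval that left out a ratio of 1. Since abundant enzymes may shift by less, a second rule, called the pairing rule, asked for a log2 ratio of at least 0.32 in size and of the same sign in all 4 pairings of the deposited columns of the samples compared. Intervals are Clopper-Pearson intervals from the split of the reads and cover counting error only. They do not hold the spread between columns, so the range over the 4 pairings is given beside the main ratios.

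The 34 genes differed widely in level. Gapdh, which encodes glyceraldehyde phosphate dehydrogenase, had 8242 TPM in aged TRM, 6952 TPM in young TRM and 8982 TPM in young TCR, and ranked 3, 5 and 2 among all genes of those samples. Eno1, Pgk1, Ldha, Pkm, Aldoa and Tpi1 also lay among the first 100 genes in each sample. At the other end, Eno2, the neuronal enolase, had 0.970, 1.12 and 2.97 TPM, and Pdk2 had 3.64, 4.97 and 6.41 TPM. The summed TPM of the 34 genes was 28131 in aged TRM, 25436 in young TRM and 31565 in young TCR. The columns of aged TRM gave 28324 and 27938, the columns of young TRM 25820 and 25052, and the columns of young TCR 32053 and 31076, so that the samples did not overlap. The 6 genes of lower glycolysis, from Gapdh to Pkm, made up most of each sum, with 17588, 15302 and 19365 TPM.

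**Figure D1:**
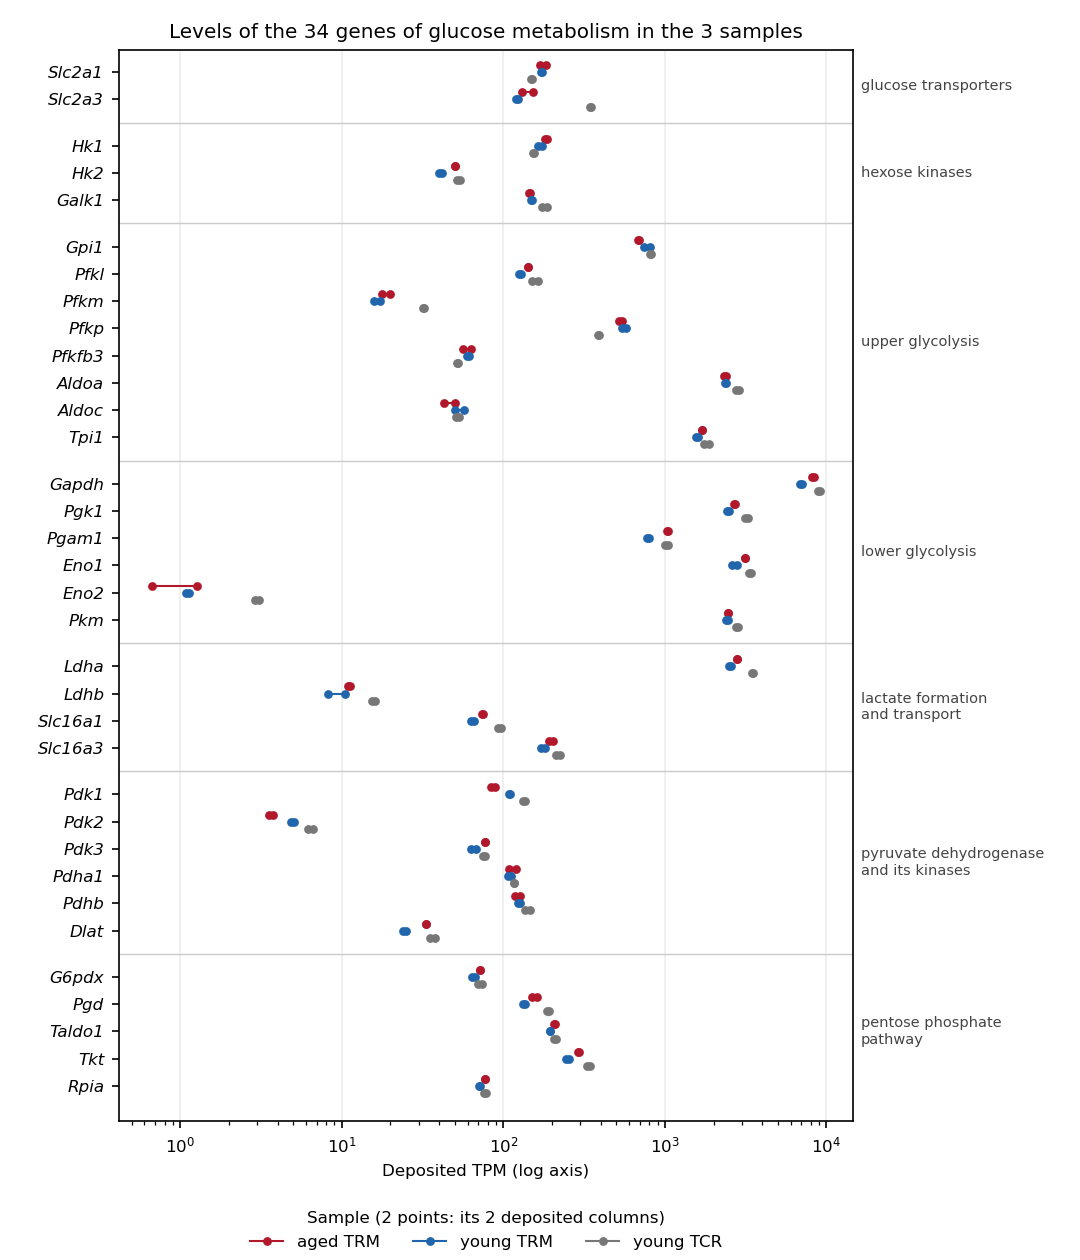
Deposited TPM on a log axis for the 34 genes, grouped by role, with aged TRM above young TRM and young TCR for each gene and 2 points for the 2 deposited columns of a sample. Levels run from about 1 TPM for Eno2 to 8982 TPM for Gapdh in young TCR. For most genes the 3 samples lie close together, with Slc2a3, Eno2, Pfkm, Pdk2 and Ldhb among the exceptions.

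The first comparison set young cells with both cytokines against young cells without them. Most genes of the list were slightly lower with the cytokines, and the neuron-type glucose transporter gene Slc2a3 was the member that fell, to 247 CPM in young TRM against 695 CPM in young TCR. Pfkp, the platelet-type phosphofructokinase, went the other way, with 878 CPM in young TRM and 610 CPM in young TCR. Past 2-fold, 1 of 34 members fell (3.6% of 11588 genes tested did) and 0 rose (4.18% of all). By the pairing rule 9 members, or 26.5%, were lower, against 13.6% of all genes tested, and 1 member was higher, against 14.3%. Of the 25 members of at least 100 CPM in either sample, 5, or 20.0%, were lower by this rule and 1 was higher, against 9.85% and 18.1% of all genes of that level.

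The lower shift was wide but small. In all 4 pairings, 28 members, or 82.4%, were lower by any amount, against 37.5% of all genes tested. In the other direction 4 members were higher in all pairings (Slc2a1, Hk1, Pfkp and Pfkfb3), against 41.4% of all genes. The pairings of Gpi1 and Aldoc differed in sign. For any difference in all pairings, the share among genes of like level was not computed. By the ratio of the samples alone, 29 of 34 members were lower, beside 1196 of the 2671 genes of at least 100 CPM. The median log2 ratio of the 34 members was -0.27, and that of all genes tested was 0.02. By role the medians were -0.64 for the 2 glucose transporters, -0.50 for the 4 lactate genes, -0.36 for lower glycolysis, -0.25 for hexose kinases, -0.23 for pyruvate dehydrogenase and its kinases, and -0.13 for both upper glycolysis and the pentose phosphate pathway. These small groups share no common test, and their order is a description.

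The second comparison set cells of mice of 18 months against cells of mice of 6 weeks, both in the TRM condition. The list differed little, and 3 members passed the pairing rule. Pdk1 and Pdk2, kinases that switch the pyruvate dehydrogenase complex off, were lower in aged TRM, and Dlat, which encodes the acetyltransferase subunit of that complex, was higher. Which members passed depended on the scaling and unit, since Pgam1 also passed with totals-only scaling and with the deposited TPM, and Pdk1 and Pdk2 did not pass with the TPM. Past 2-fold, 0 members rose (2.25% of 11575 genes tested did) and 0 fell (1.15% of all). By the pairing rule 1 member, or 2.94%, was higher and 2 members, or 5.88%, were lower, against 9.05% and 7.93% of all genes. Of the 24 members of at least 100 CPM, 0 were higher and 1 was lower, against 4.28% and 8.6% of all genes of that level. Counts this small do not set the members' shares apart from those of all genes tested. By any amount in all 4 pairings, 20 members, or 58.8%, were higher, against 35.9% of all genes. In the same way 8, or 23.5%, were lower, against 38.1%. Here too the share among genes of like level was not computed. By the ratio of the samples alone, 22 of 34 members were higher, beside 1201 of the 2594 genes of at least 100 CPM. The median log2 ratio of the members was 0.09, and that of all genes tested was -0.01. Both comparisons use the young TRM sample, on top in the first and below in the second, so a chance deviation of that sample would shift them in opposite directions.

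**Figure D2:**
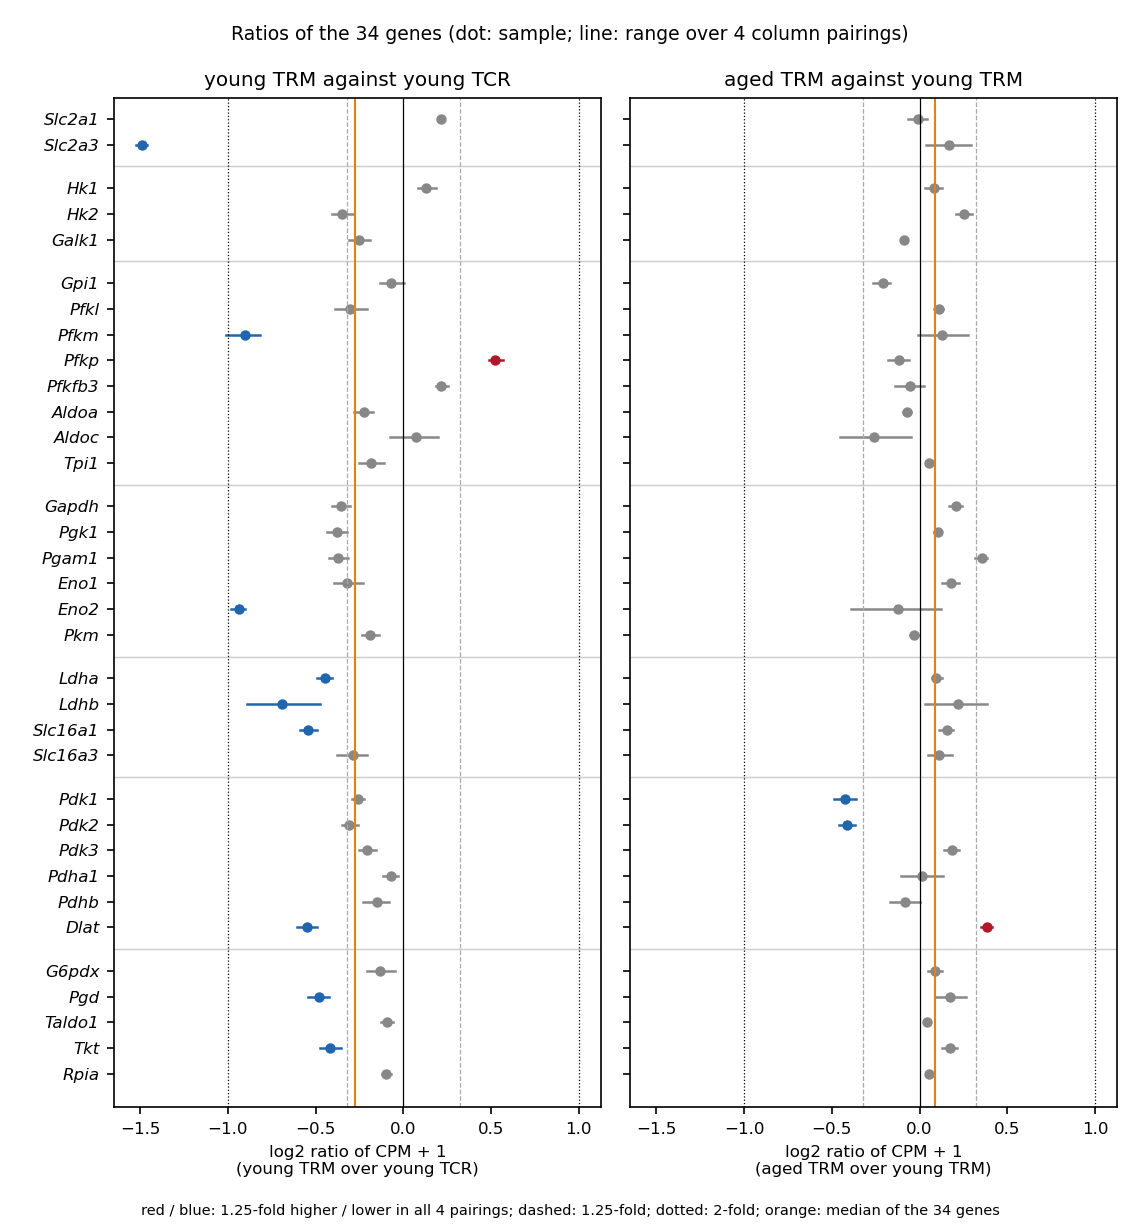
Log2 ratios of CPM + 1 for the 34 genes in young TRM against young TCR (left) and aged TRM against young TRM (right), where dots are ratios of the samples, lines span the 4 column pairings and colours mark the pairing rule. Slc2a3 lies past the 2-fold line at -1.49 on the left, and all members lie within 2-fold on the right.

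**Figure D3:**
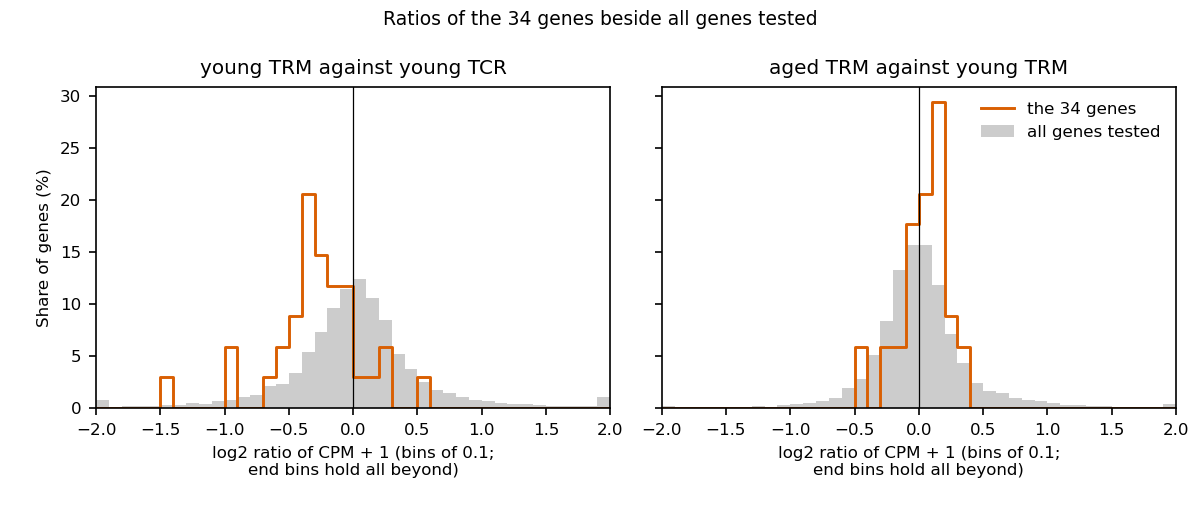
Share of genes (%) by log2 ratio in bins of 0.1 for the 34 genes (orange line) and all genes tested (grey bars) in young TRM against young TCR (left) and aged TRM against young TRM (right). The members centre at a median of -0.27 on the left and 0.09 on the right, while all genes centre at 0.02 and -0.01.

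Among glucose transporters the samples differed in which gene led. Slc2a3 encodes GLUT3, a transporter with high affinity for glucose, and is found on chromosome 6 between 122727809 and 122802363 (GRCm38.p6). It had 277 CPM in aged TRM, 247 CPM in young TRM and 695 CPM in young TCR, with columns of 296 and 258, 242 and 252, and 695 and 696 CPM. The TRM columns lay far under both young TCR columns, and the columns of aged TRM stood further apart than those of the other samples. Young TRM was 2.81-fold lower than young TCR (2.75 to 2.88), and the log2 ratio of -1.49 ran from -1.52 to -1.46 over the pairings. Aged TRM was 1.12-fold higher than young TRM, with pairings from 0.04 to 0.29 on the log2 scale. Slc2a1 encodes GLUT1, the transporter usually named in activated T cells, and had 222, 224 and 193 CPM in aged TRM, young TRM and young TCR. Its columns overlapped between aged and young TRM, and young TRM was 1.16-fold higher than young TCR. Per transcript length, Slc2a3 held 44.6% of the summed TPM of both genes in aged TRM, 41.5% in young TRM and 69.9% in young TCR, and the sum itself was 317, 293 and 494 TPM. Without division by length these shares were 55.5%, 52.4% and 78.3%, so which gene led in the TRM samples depended on the unit, while the higher share in young TCR did not.

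The hexose kinases trap sugars by adding phosphate. Hk1, the hexokinase gene expressed in most tissues, had 349 CPM in aged TRM, 330 CPM in young TRM and 301 CPM in young TCR. Hk2, the hexokinase gene known to be inducible, had 132, 110 and 141 CPM, lowest in young TRM with no overlap of columns. Young TRM had 1.28-fold less Hk2 than young TCR (1.22 to 1.33), and aged TRM 1.2-fold more than young TRM, with pairings from 0.21 to 0.30 on the log2 scale. Hk2 held 21.5% of the TPM of both hexokinases in aged TRM, 19.6% in young TRM and 25.4% in young TCR. Galk1, which phosphorylates galactose, had 106, 113 and 135 CPM, and young TRM was 1.19-fold lower than young TCR.

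**Figure D4:**
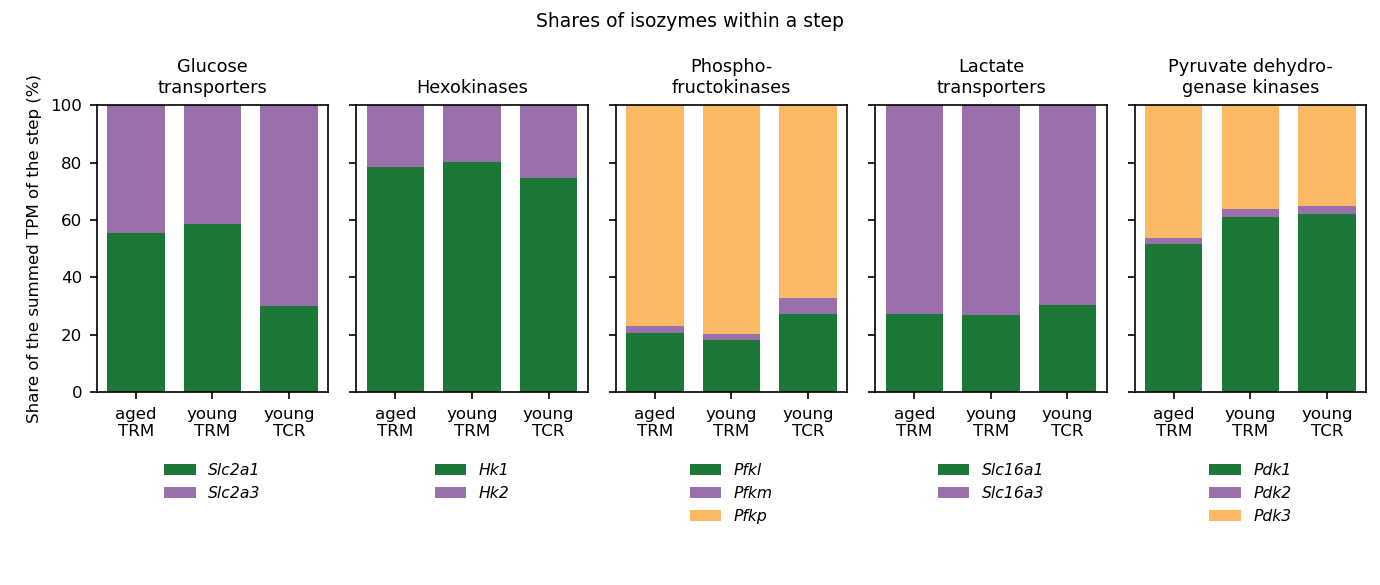
Share (%) of each isozyme in the summed TPM of its step, for aged TRM, young TRM and young TCR from left to right, as stacked bars without error bars. Slc2a3 takes 44.6%, 41.5% and 69.9% of the glucose transporter sum and Pfkp takes 76.9%, 79.6% and 67.3% of the phosphofructokinase sum, while Pdk1 takes 51.7%, 60.9% and 62.0% of the pyruvate dehydrogenase kinase sum.

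In upper glycolysis the phosphofructokinase genes, which encode subunits of the enzyme of the committed step, differed in direction. Pfkp lies on chromosome 13, positions 6579874 to 6649060, and had 810 CPM in aged TRM, 878 CPM in young TRM and 610 CPM in young TCR. Both TRM samples lay above young TCR in every column. Young TRM was 1.44-fold higher than young TCR (1.41 to 1.46), with pairings from 0.49 to 0.57 on the log2 scale, and aged TRM was 1.08-fold lower than young TRM. Pfkm, the muscle-type gene, had 26.7, 24.4 and 46.5 CPM in aged TRM, young TRM and young TCR, the opposite order to Pfkp. Its log2 ratio of -0.90 in young TRM against young TCR lay just under 2-fold (1.91-fold lower, 1.76 to 2.07), and passed it with column 1 alone (-1.01). Pfkl, the liver-type gene, had 263, 244 and 301 CPM. Pfkp held 76.9% of the TPM of the 3 phosphofructokinase genes in aged TRM, 79.6% in young TRM and 67.3% in young TCR, and their sum was 693, 702 and 580 TPM. Pfkfb3 makes the sugar bisphosphate that activates phosphofructokinase, and had 130, 135 and 116 CPM, with a log2 ratio of 0.22 in young TRM against young TCR.

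The other enzymes of upper glycolysis differed little. Gpi1, glucose phosphate isomerase, had 983 CPM in aged TRM, 1138 CPM in young TRM and 1194 CPM in young TCR. It was 1.16-fold lower in aged TRM than in young TRM (1.14 to 1.17), whereas young TRM and young TCR overlapped. Aldoa, the main aldolase gene, had 1707, 1796 and 2102 CPM, and Tpi1, triose phosphate isomerase, had 1321, 1271 and 1443 CPM. Both were lower in young TRM than in young TCR in all pairings, by 1.17-fold and 1.14-fold. Aldoc, the aldolase known from brain, had 61.6, 74.0 and 70.3 CPM, and its columns were far apart in both TRM samples (66.2 and 57.0 CPM in aged TRM, 68.5 and 78.4 CPM in young TRM).

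In lower glycolysis, where ATP is made, the log2 ratios of the 6 genes ran from -0.94 (Eno2) to -0.19 (Pkm) in young TRM against young TCR, and from -0.12 (Eno2) to 0.35 (Pgam1) in aged TRM against young TRM. Eno2 was the member of this group past the pairing rule in the first comparison, and 0 of 6 passed it in the second. Gapdh had 5570 CPM in aged TRM, 4827 CPM in young TRM and 6184 CPM in young TCR. Pgk1, phosphoglycerate kinase, had 2416, 2249 and 2928 CPM, Pgam1, phosphoglycerate mutase, had 931, 728 and 943 CPM, and Eno1, the main enolase, had 2718, 2399 and 2992 CPM. All 4 were lowest in young TRM, without overlap of columns between samples except for Pgam1 in aged TRM and young TCR. Against young TCR, young TRM was lower by 1.28-fold for Gapdh, 1.3-fold for Pgk1, 1.29-fold for Pgam1 and by 0.32 on the log2 scale for Eno1. Pgk1 and Pgam1 lay just outside the pairing rule, with their smallest pairing at a log2 ratio of -0.319 and -0.314. Tkt lay just inside at -0.357. Against young TRM, aged TRM was higher by 1.28-fold for Pgam1 (1.26 to 1.3), 1.15-fold for Gapdh, 1.13-fold for Eno1 and 1.07-fold for Pgk1. Pkm, pyruvate kinase, had 2880, 2945 and 3362 CPM, and was 1.14-fold lower in young TRM than in young TCR. Eno2 had 53 reads in aged TRM, 53 in young TRM and 154 in young TCR, of which the last corresponds to 3.80 CPM. Young TRM was 2.53-fold lower than young TCR (1.84 to 3.52), but the log2 ratio with the pseudocount was -0.94, so that Eno2 did not pass the 2-fold rule.

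Several of these enzymes have retrocopies or pseudogenes named after them in the RefSeq annotation, 7 for Tpi1, 4 for Aldoa, 3 each for Gapdh, Ldha and Pgk1, 2 for Pgam1 and 1 for Eno1. The sources used here do not give how reads that fit more than 1 copy were counted, and the levels of these genes are uncertain to that extent. Of the copies, Eno1b had 136 reads in aged TRM, 86 in young TRM and 132 in young TCR, and the aldolase retrogenes Aldoart1 and Aldoart2 together had 84, 67 and 96 reads.

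The genes of lactate formation and transport had a median log2 ratio of -0.50 in the first comparison, and 3 of 4 were lower by the pairing rule, as were 13.6% of all genes tested. Ldha, which encodes the lactate dehydrogenase subunit that favours lactate formation, had 2211 CPM in aged TRM, 2071 CPM in young TRM and 2829 CPM in young TCR. The columns of young TCR, 2873 and 2785 CPM, stood clear of the 4 TRM columns, which ran from 2039 to 2224 CPM. Young TRM was 1.37-fold lower than young TCR (1.35 to 1.38), and aged TRM was 1.07-fold higher than young TRM (1.06 to 1.08). Ldhb, the subunit of heart-type lactate dehydrogenase, had 6.99, 5.87 and 10.1 CPM, and with 11.1, 9.31 and 15.7 TPM it was far below Ldha, which had 2797, 2530 and 3487 TPM. Slc16a1 encodes the monocarboxylate transporter MCT1 and had 163, 146 and 214 CPM. Young TRM was 1.46-fold lower than young TCR (1.41 to 1.51), and aged TRM was 1.11-fold higher than young TRM. Slc16a3 encodes MCT4, known for lactate export from glycolytic cells, and had 239, 221 and 270 CPM, which was 1.22-fold lower in young TRM than in young TCR. Slc16a1 held 27.3% of the TPM of both transporters in aged TRM, 26.8% in young TRM and 30.3% in young TCR.

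Many glycolytic promoters are known targets of hypoxia-inducible factors and of MYC, whose core motifs share letters, so the members' promoters were searched for these letters. RefSeq windows of 300 bases, from 250 before to 50 after the annotated start on GRCm38.p6, were at hand for 33 of the 34 members, in 48 windows, and Slc2a3 had none. The hypoxia response core was searched as ACGTG and GCGTG on both strands, and the E-box as CACGTG, which holds the first core on each strand and then counts as 2 matches. At least 1 core match stood in 37 of 48 member windows (77.1%), against 43.8% of all 32851 windows, and at least 4 matches stood in 7 member windows (14.6%), against 3.86% of all. The E-box stood in 6 member windows (12.5%), against 7.15% of all. Base composition was not matched between these sets. Genes with several windows count more than once, and some windows of the same gene overlap, so the windows are not independent. Pfkp, the member that was higher in young TRM by the pairing rule, had 4 core matches and 0 E-boxes. Ldha, which was lower, had 7 matches and 2 E-boxes in the richer of its 2 windows, and Slc16a1, also lower, had 5 matches and 1 E-box. Of the other lower members with windows, Pfkm had 3 matches and 1 E-box in its richest window. Eno2, Ldhb, Dlat, Pgd and Tkt had 0 E-boxes. Pfkfb3, which was higher in all pairings without passing the rule, had 4 matches and 1 E-box in its richer window. Pfkp, Ldha and Slc16a1 are shown because they had most matches among members past that rule. Capitals mark the core matches, and each sequence is written 5′ to 3′ on the strand of the gene. The Pfkp window is chr13:6648722-6649021 on the minus strand, the Ldha window chr7:46845554-46845853 on the plus strand and the Slc16a1 window chr3:104638414-104638713 on the plus strand.
Pfkp: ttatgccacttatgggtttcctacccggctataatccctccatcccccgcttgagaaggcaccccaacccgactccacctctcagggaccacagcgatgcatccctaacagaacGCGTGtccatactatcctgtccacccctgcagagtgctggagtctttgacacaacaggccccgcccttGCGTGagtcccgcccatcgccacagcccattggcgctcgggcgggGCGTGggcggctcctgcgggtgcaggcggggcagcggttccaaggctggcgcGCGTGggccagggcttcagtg
Ldha: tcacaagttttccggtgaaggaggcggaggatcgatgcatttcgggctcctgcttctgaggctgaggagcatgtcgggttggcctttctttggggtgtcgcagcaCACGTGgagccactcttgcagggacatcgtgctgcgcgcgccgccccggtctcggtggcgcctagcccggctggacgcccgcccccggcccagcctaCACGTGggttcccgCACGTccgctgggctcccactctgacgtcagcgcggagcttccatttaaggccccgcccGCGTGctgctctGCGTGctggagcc
Slc16a1: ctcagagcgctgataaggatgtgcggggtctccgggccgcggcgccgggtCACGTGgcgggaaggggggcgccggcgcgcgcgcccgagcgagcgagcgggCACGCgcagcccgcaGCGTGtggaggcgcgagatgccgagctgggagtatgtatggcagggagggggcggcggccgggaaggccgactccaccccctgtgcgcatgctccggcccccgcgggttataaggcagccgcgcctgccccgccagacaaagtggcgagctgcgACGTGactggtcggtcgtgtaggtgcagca
The windows describe letters only, since binding was not measured.

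The pyruvate dehydrogenase complex turns pyruvate into acetyl-CoA, and its genes and those of its kinases held the 3 members past the pairing rule in aged TRM against young TRM with TMM scaling. Pdk1, the kinase gene known to respond to hypoxia, lies on chromosome 2, positions 71873215 to 71903858, and had 174 CPM in aged TRM, 234 CPM in young TRM and 279 CPM in young TCR. The columns of the 3 samples did not overlap, at 178 and 169, 230 and 237, and 277 and 282 CPM. Aged TRM was 1.35-fold lower than young TRM (1.3 to 1.39), with pairings from -0.49 to -0.36 on the log2 scale, and young TRM was 1.2-fold lower than young TCR. Pdk2 had 4.03, 5.70 and 7.30 CPM in aged TRM, young TRM and young TCR, and aged TRM was 1.41-fold lower than young TRM (1.14 to 1.75). With a pseudocount of 5 the pairing rule held for Pdk1 and not for Pdk2, and in the deposited TPM it held for neither. Pdk3, the third kinase of the list, had 77.3, 67.8 and 78.5 CPM and was 1.14-fold higher in aged TRM than in young TRM. Pdk1 held 51.7% of the TPM of the 3 kinase genes in aged TRM, 60.9% in young TRM and 62.0% in young TCR, and Pdk3 held 46.2%, 36.3% and 35.0%.

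Among the subunits of the complex, Dlat stood apart from the subunits of the first enzyme. It lies on chromosome 9, positions 50634633 to 50659780, and had 66.1 CPM in aged TRM, 50.5 CPM in young TRM and 74.4 CPM in young TCR, lowest in young TRM with no overlap of columns. Young TRM was 1.47-fold lower than young TCR (1.39 to 1.56), and aged TRM was 1.31-fold higher than young TRM (1.23 to 1.39). Pdha1 and Pdhb, which encode the alpha and beta subunits of pyruvate dehydrogenase, had 161, 160 and 168 CPM and 88.1, 93.5 and 104 CPM. Pdha1 in aged and young TRM overlapped, and its log2 ratio in young TRM against young TCR was -0.07. Dld and Pdhx, further genes of the complex outside the list, were chosen after their values were seen. They were also lowest in young TRM in all pairings, by less than Dlat. Dld had 156, 131 and 154 CPM in aged TRM, young TRM and young TCR, and Pdhx had 22.1, 19.7 and 21.6 CPM.

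The list held 5 genes of the pentose phosphate pathway. In all pairings 5 of these 5 were lower in young TRM than in young TCR, as were 37.5% of all genes tested. By the pairing rule 2 of them were lower, as were 13.6% of all genes. The shift was not shared by the 12 other pentose phosphate and sugar genes tested. Their median log2 ratio in this comparison was 0.0003, with 6 above 0 and 6 below. Pgd, the phosphogluconate dehydrogenase of the oxidative branch, had 170 CPM in aged TRM, 150 CPM in young TRM and 210 CPM in young TCR. Tkt, the transketolase of the non-oxidative branch, had 464, 412 and 551 CPM. Neither gene had overlapping columns, and young TRM was lower than young TCR by 1.4-fold for Pgd (1.35 to 1.45) and 1.34-fold for Tkt (1.31 to 1.37). Aged TRM was 1.13-fold higher than young TRM for both. G6pdx, which makes the first step of the branch, had 82.4, 77.3 and 84.8 CPM, a log2 ratio of -0.13 in young TRM against young TCR. Taldo1, transaldolase, had 128, 124 and 132 CPM, and Rpia, ribose phosphate isomerase, had 66.2, 63.7 and 68.3 CPM. For these 3 genes young TRM was lower than young TCR by at most 1.1-fold.

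Other genes of the same pathways were taken from lists drawn up beside the members. Of 14 tested genes for further hexose transporters and glycolytic isozymes, 1 fell and 0 rose past 2-fold in young TRM against young TCR, beside 3.6% and 4.18% of all genes tested. This was Slc2a6, which encodes the transporter GLUT6, with 27.7 CPM in aged TRM, 14.5 CPM in young TRM and 62.2 CPM in young TCR (4.28-fold lower in young TRM than in young TCR, 3.89 to 4.72). Its log2 ratio in aged TRM against young TRM was 0.89. Adpgk, a glucokinase that uses ADP, had 43.5, 44.3 and 27.1 CPM, a log2 ratio of 0.69 in young TRM against young TCR. Of 9 tested genes around mitochondrial pyruvate and lactate transport, 0 passed 2-fold in either comparison, and Emb, which encodes embigin, a partner of monocarboxylate transporters, had 152, 122 and 232 CPM, a log2 ratio of -0.92 in young TRM against young TCR. The 12 other pentose phosphate and sugar genes and the 5 tested genes of gluconeogenesis and the glycerol phosphate shuttle held 0 genes past 2-fold in either comparison. In aged TRM against young TRM the median log2 ratio was -0.04 for these 12 genes, with 6 above 0 and 6 below. It was 0.25 for the 9 mitochondrial genes, with 7 above 0 and 2 below. For the 5 gluconeogenesis and shuttle genes it was 0.37, with 4 above 0 and 1 below. That of all genes tested was -0.01. In the gluconeogenesis list Gpd2, the mitochondrial glycerol phosphate dehydrogenase, had 40.2, 28.2 and 46.3 CPM. Pcx, pyruvate carboxylase, had 14.8, 8.86 and 10.2 CPM, a log2 ratio of 0.68 in aged TRM against young TRM.

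Among 17 tested regulators of the pathway, 4 were higher and 1 lower by the pairing rule in young TRM against young TCR, beside 14.3% and 13.6% of all genes tested. In aged TRM against young TRM 1 was higher and 1 lower, beside 9.05% and 7.93% of all genes. Past 2-fold, 1 fell and 0 rose in young TRM against young TCR, and 1 rose and 0 fell in aged TRM against young TRM, in both cases Epas1, which encodes HIF-2alpha, with 6.44 CPM in aged TRM, 1.31 CPM in young TRM and 105 CPM in young TCR. Its log2 ratios were -5.52 in young TRM against young TCR and 1.69 in aged TRM against young TRM. Hif1a, the hypoxia-inducible factor usually tied to glycolysis, had 472, 404 and 458 CPM, and Myc had 251, 311 and 257 CPM. The log2 ratios in young TRM against young TCR were -0.18 for Hif1a and 0.27 for Myc. Txnip, whose product restrains glucose uptake, had 224, 355 and 431 CPM and log2 ratios of -0.66 in aged TRM against young TRM and -0.28 in young TRM against young TCR. Hypoxia response genes outside the list went both ways in the first comparison. Of 17 tested, 2 rose and 1 fell, beside 4.18% and 3.6% of all genes tested, and the median log2 ratio was -0.08. By the pairing rule 3 were higher and 4 lower, beside 14.3% and 13.6% of all genes. Vegfa had 133 CPM in young TRM and 63.1 CPM in young TCR, and Kdm3a had 355 CPM in young TRM and 163 CPM in young TCR. P4ha2, which fell, had 7.32 CPM in young TRM and 18.8 CPM in young TCR. In aged TRM against young TRM 0 of 18 passed 2-fold (2.25% of all genes tested rose and 1.15% fell), and the median was -0.07. By the pairing rule 1 of the 18 was higher and 4 were lower, beside 9.05% and 7.93% of all genes. Kdm3a, among the lower, had 234 CPM in aged TRM (log2 ratio -0.60). P4ha2, the higher, had 11.3 CPM in aged TRM (0.56).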

How the data were processed

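RNA was measured in 3 samples. Per the labels, RNA was column-purified and libraries were made by standard Illumina protocols from total RNA, and the submitters' processing notes name Bowtie and GRCm38 (mm10), whereas the counting program was not given in the sources used here. The deposited estimated counts (read counts that need not be whole) were rounded, and the 2 columns of each sample were summed. The authors' TPM, relative to transcript length and library total, was used as deposited. A further 24 value columns were not used.

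Libraries were scaled by TMM factors (edgeR 4.0.16, R 4.3.3), and columns by the factor of their sample. Ratios, with a pseudocount of 1 CPM, were computed over all genes of at least 1 CPM in either sample (Python 3.11.15, numpy 2.4.6, pandas 2.3.3, scipy 1.17.1), and the calling functions were tested on simulated data. The counting interval was 95% Clopper-Pearson. All 34 members passed the filter. Positions and promoters came from RefSeq on GRCm38.p6 by gene ID or symbol. The members and lists were chosen with earlier results of these data known. All members are reported. From other lists genes past 2-fold and up to 4 with the largest ratios could be named, and Myc, Hif1a, Epas1 and Txnip were named whatever their values. Alternatives were totals-only and median-ratio scaling (DESeq2 1.42.0), a pseudocount of 5, a minimum of 10 CPM or none, the TPM, each column alone, and other folds.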

Additional observations from a re-analysis of the deposited data

How the results depend on the processing

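No paired analysis was possible because each group had 1 sample. Counts of members past 2-fold differed from the main ones only with column 1 alone, where 2 members were lower in young TRM than in young TCR (Slc2a3 and Pfkm). The members' median log2 ratio in young TRM against young TCR was -0.33 with totals-only scaling and -0.30 with the deposited TPM, and in aged TRM against young TRM 0.13 with each of these and 0.090 over the members of at least 10 CPM (0.09 over all 34). With totals-only scaling the median of all genes was -0.04 in the first comparison (0.02 with TMM) and 0.03 in the second (-0.01 with TMM). Asking 1.5-fold of every pairing left 0 higher and 3 lower members (Slc2a3, Pfkm and Eno2) in the first comparison, and 0 and 0 in the second. Asking for any difference gave 4 and 28 members in the first and 20 and 8 in the second. The lower count of 9 in the first comparison was 13 with totals-only scaling, 12 with the TPM, 11 with median-ratio scaling and 8 at 10 CPM. In aged TRM against young TRM, 2 members (Pgam1 and Dlat) were higher with totals-only scaling and with the TPM, and the lower count was 1 with a pseudocount of 5 or at 10 CPM and 0 with the TPM. A factor for each column, chosen after seeing the data, gave 11 lower members in the first comparison. The causes of these differences were not tested.

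With reads not divided by length, in aged TRM, young TRM and young TCR, Slc2a3 held 55.5%, 52.4% and 78.3% of its step, Hk2 27.4%, 25.1% and 31.9%, Pfkp 73.6%, 76.6% and 63.7%, Slc16a1 40.6%, 39.8% and 44.2%, and Pdk1 68.1%, 76.1% and 76.5%. Among single members the sign changed under at least 1 setting for Aldoc in the first comparison and for Eno2, Pdha1, Pfkm, Pkm and Slc2a1 in the second. Columns alone could not be used for the rule on pairings. With 1 sample per group, depth limits little for abundant members, and the 53 reads of Eno2 in each TRM sample are the fewest of any member.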

Other observations

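Aged TRM against young TCR differs in age and cytokines at once and was not a comparison of the study, so only values are given. Slc2a3 had 277 CPM in aged TRM and 695 CPM in young TCR (log2 ratio -1.32), Pdk1 174 and 279 CPM (-0.68), Pdk2 4.03 and 7.30 CPM (-0.72), and Pfkp 810 and 610 CPM (0.41). Pgam1 had 931 and 943 CPM (-0.02).

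The muscle enolase gene Eno3, which was not on the list of members and was chosen after its values were seen, was more abundant than Eno2 in each sample, with 62.2 TPM in aged TRM, 57.0 TPM in young TRM and 62.8 TPM in young TCR. The order of young TRM and young TCR differed in CPM, with 130 CPM in young TRM and 119 CPM in young TCR.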
